A study of Mus musculus with 6 samples.

Results

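The 8 genes described here, Spi1, Irf8, Irf4, Zbtb46, Id2, Tcf4, Bcl11a and Relb, encode transcription factors or transcription factor partners with known roles in dendritic cell fate. Their members are the cytosines listed inside 8 fixed windows of the mouse mm9 genome, of 30 to 365 kb each, which hold the gene with flanking sequence. The windows held 607 of the 652716 cytosines of the deposited table. Of these, 595 were read in all 6 samples and 22 reached 10 reads in all of them. All samples were C57BL/6J bone marrow cells labelled male, measured by reduced representation bisulfite sequencing, which reads cytosines near MspI and TaqI cut sites. The day 0 samples (replicates 2 and 3) were uncultured marrow. The day 4 samples (replicates 1 and 2), labelled common myeloid progenitors, and the day 7 samples (replicates 1 and 4), labelled bone marrow derived dendritic cells, had been cultured with 20% supernatant containing Flt3L. All live cells were taken at both later times, so each level is a mean over whatever cell types the culture held. Whether the 2 samples of a group had separate animals or cultures behind them is not in the labels. The p-values therefore reflect the spread between these samples alone, which may be technical. No marker check of the labelled cell types was made on these methylation values. Reads per cytosine of the X chromosome, relative to autosomes, were 1.01 and 1.07 in the day 7 samples and 0.650 to 0.688 in the other 4, although all carry the label male. All 8 windows are autosomal, and the part of this difference in the results was not tested.

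Dendritic cells arise from marrow progenitors under Flt3L and branch into conventional type 1 and type 2 cells and plasmacytoid cells. Spi1 encodes PU.1, an ETS factor needed across the myeloid and dendritic lineages. Irf8 and Irf4 are interferon regulatory factors that partner with PU.1, the former needed by type 1 conventional cells and the latter used by type 2 cells. Zbtb46 is a zinc finger factor whose expression marks conventional dendritic cells. Tcf4, also called E2-2, is the E protein that specifies plasmacytoid cells, Id2 is an inhibitor of E proteins that favours the conventional fate, and Bcl11a is a zinc finger factor used by plasmacytoid and B cells. Relb is an NF-kappaB subunit active in maturing dendritic cells. At most CpG-rich promoters DNA methylation is low whether or not the gene is expressed, while distal elements can lose methylation as a lineage forms.

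The listed cytosines could be tied to an annotated promoter for Irf4 and Id2, and those 2 sequences are shown because they place the unmethylated CpGs next to the transcription start. RefSeq (GRCm38.p6) promoter sequences were at hand for 5 of the 8 genes. No coordinates were converted between builds. Each promoter was slid along its mm9 window, and a placement was accepted where it held at least 5 listed cytosines and each of them fell on a CpG. Exactly 1 placement passed for Irf4, with 8 listed cytosines, and in the next best placement 28.6% of listed cytosines fell on a CpG. Exactly 1 passed for Id2, with 5 listed cytosines, against 66.7% in the next best. None passed for Irf8, Zbtb46 or Bcl11a. The 250 bases upstream of the annotated start follow, 5′ to 3′, with the CpGs that the table lists in capitals.
Irf4, GRCm38.p6 chr13:30748983-30749232, + strand: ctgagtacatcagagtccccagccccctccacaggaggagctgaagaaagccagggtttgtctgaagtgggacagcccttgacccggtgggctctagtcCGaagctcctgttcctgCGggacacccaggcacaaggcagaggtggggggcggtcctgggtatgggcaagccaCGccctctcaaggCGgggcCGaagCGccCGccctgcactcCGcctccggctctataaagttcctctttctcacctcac
Id2, GRCm38.p6 chr12:25096093-25096342, - strand: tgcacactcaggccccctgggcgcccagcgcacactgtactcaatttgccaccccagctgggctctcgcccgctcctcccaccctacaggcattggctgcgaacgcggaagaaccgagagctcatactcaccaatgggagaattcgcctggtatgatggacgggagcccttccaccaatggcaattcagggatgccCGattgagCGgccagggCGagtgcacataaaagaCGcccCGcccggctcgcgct

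The Irf4 stretch holds 11 CpGs, of which the 8 listed lie 151 to 38 bases before the start. The Id2 stretch holds 18 CpGs, of which the 5 listed lie 54 to 15 bases before the start. The MspI site CCGG (its own reverse complement) occurs 2 times in the Irf4 stretch and 1 time in that of Id2, and 47.1% of all 32851 RefSeq mouse promoter stretches of this length hold it. The TaqI site TCGA, also its own reverse complement, occurs in neither, and 18.5% of the stretches hold it.

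At the Irf4 promoter, 5 of the 8 listed CpGs had no methylated read in any sample. The exceptions lay 151, 134 and 54 bases before the start. The CpG 151 bases before it had 1 methylated read of 13 in day 0 replicate 2 and 2 of 7 in day 7 replicate 1, that at 134 had 1 of 13 in day 0 replicate 2, and that at 54 had 1 of 5 in day 7 replicate 4. At the Id2 promoter 4 of the 5 listed CpGs had no methylated read in any sample, and the CpG 37 bases before the start had 1 of 3 in day 7 replicate 4. Few or no methylated reads were thus seen at either promoter stretch on any day. Depth per CpG was 5 to 26 reads for Irf4 and 3 to 10 for Id2. A count of 0 on 5 reads, as in day 4 replicate 2 at the Irf4 promoter, allows a level of up to 60.0%, and on the 26 of day 4 replicate 1 up to 11.5%. At the Id2 promoter the counts of 0 allow up to 50% and 60% in the marrow samples, 30% in day 4 replicate 1 and 42.9% in day 7 replicate 1, and the 3 reads of day 4 replicate 2 set no limit.

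**Figure D1:**
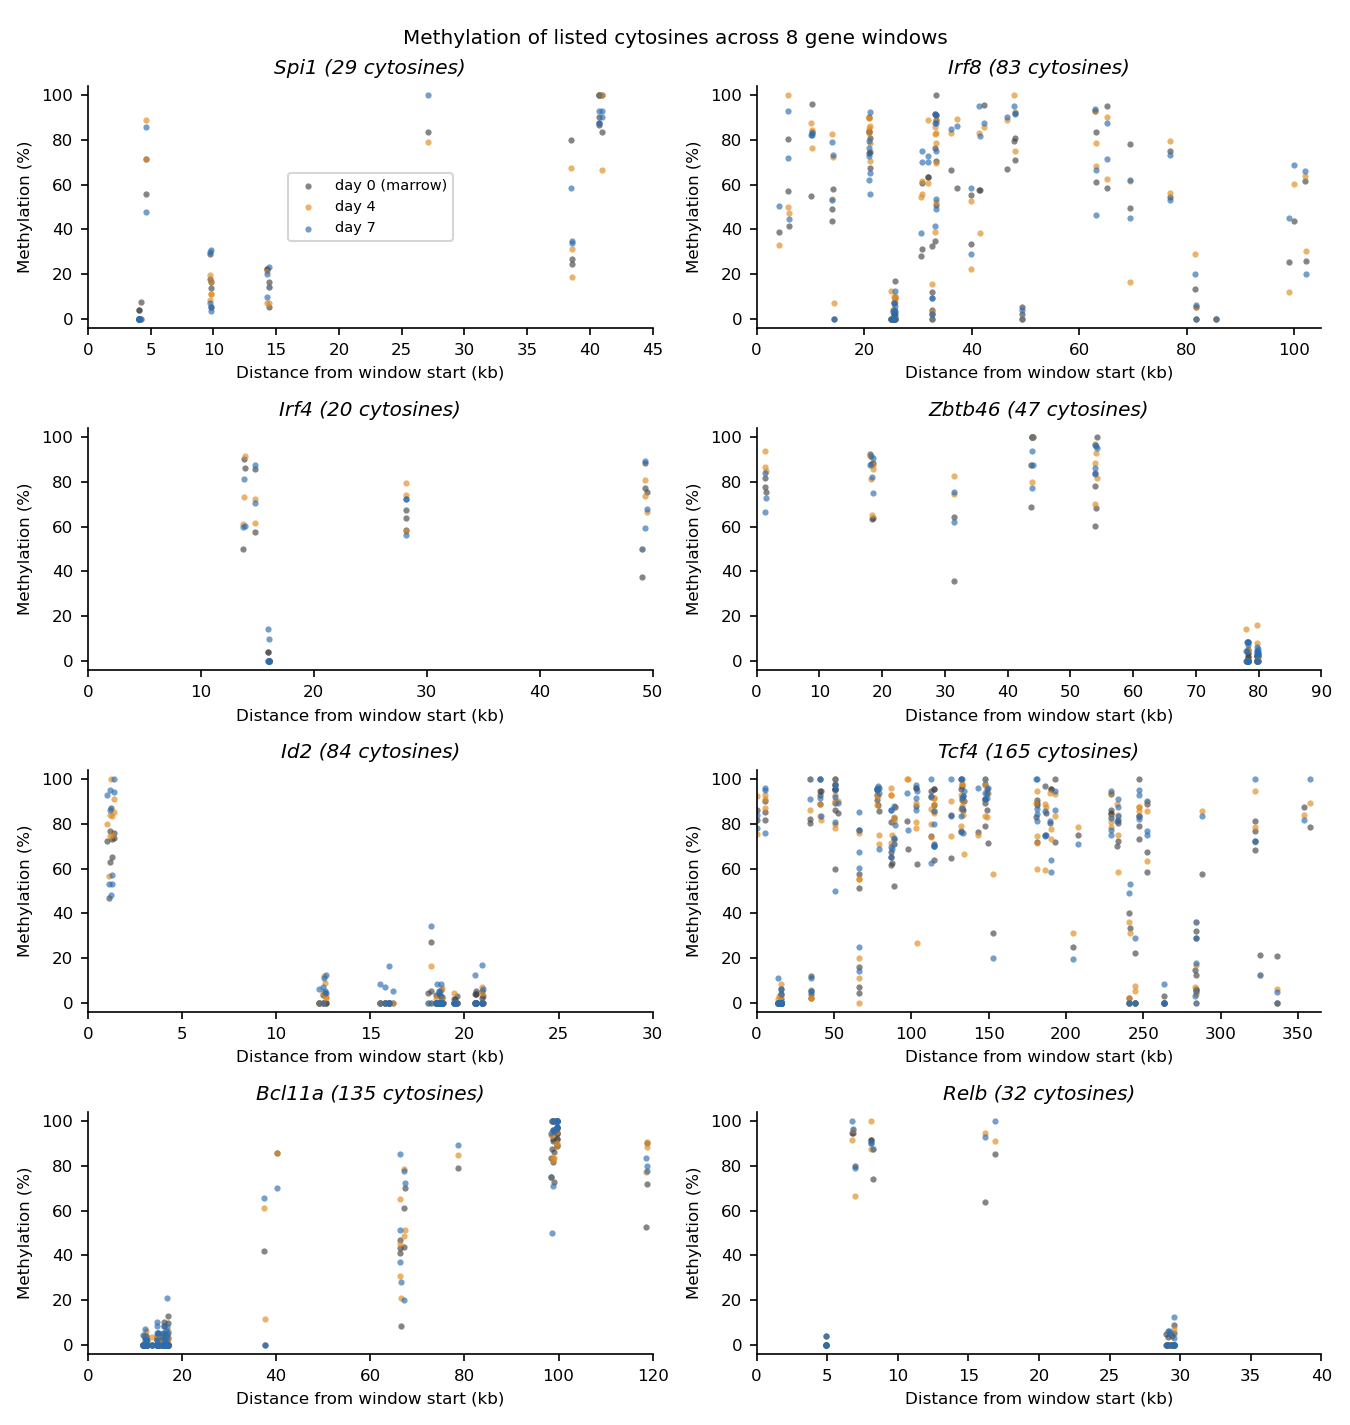
Mean methylation level in percent (vertical axis) of each listed cytosine with a read in every sample, at its distance in kb from the start of the gene window (horizontal axis), with 1 point per cytosine and group (grey day 0, orange day 4, blue day 7; each the mean of 2 samples). Each window has a cluster of cytosines near 0%, with most other cytosines above it, and the 3 colours overlap.

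Each window combined a tight cluster of nearly unmethylated cytosines with methylated cytosines elsewhere. The longest unbroken run of listed cytosines below 20% (mean over the 6 samples) was in Bcl11a, with 99 cytosines over 5.421 kb on chromosome 11 from 23976676 to 23982096 at a mean of 1.06%. In Id2 it held 54 cytosines over 2.774 kb at 0.961%, in Tcf4 32 cytosines over 1.883 kb at 0.520%, and in Zbtb46 27 cytosines over 1.964 kb at 2.09%. The runs were shorter in Relb with 19 cytosines over 0.572 kb, Irf8 with 18 over 0.878 kb, Irf4 with 8 over 0.114 kb and Spi1 with 8 over 0.156 kb. Listed cytosines are sparse outside these clusters, so the ends of the unmethylated stretches are not located. The next listed cytosine after the Bcl11a run, for example, lay 20276 bp away and stood at 56.4%.

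Of the 595 cytosines, 55.5% had a mean below 20%, 19% lay between 20% and 80%, and 25.5% lay above 80%. Over all 630002 autosomal cytosines read in each sample the shares were 40.8%, 25.5% and 33.7%. The windows differed among themselves. Id2 had 88.1% of its cytosines below 20%, followed by Relb with 75.0% and Bcl11a with 74.8%, whereas Tcf4 had 32.1% and Irf8 33.7%. Irf4 with 50% and Irf8 with 44.6% had the highest shares at intermediate levels, on 20 and 83 cytosines. Of the 37 intermediate cytosines of Irf8, 30 lay outside any region. Cytosines of 1 sequenced fragment share their reads, and the part of low read numbers in the intermediate class was not tested.

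Regions were runs of at least 3 listed cytosines with neighbours at most 100 bp apart, and levels of regions are methylated calls as a share of all calls, a call being 1 read at 1 cytosine. The windows held 65 regions with 411 of the 607 cytosines. Of these, 54 had at least 10 calls in each sample and were tested. The other 11 fell below this limit. Of the tested regions, 33 lay below 20% in their mean over the 6 samples, 6 between 20% and 80%, and 15 above 80%. In the 33 low regions neighbouring cytosines lay a median of 14.5 bp apart, and in the 15 high regions 16.3 bp.

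**Figure D2:**
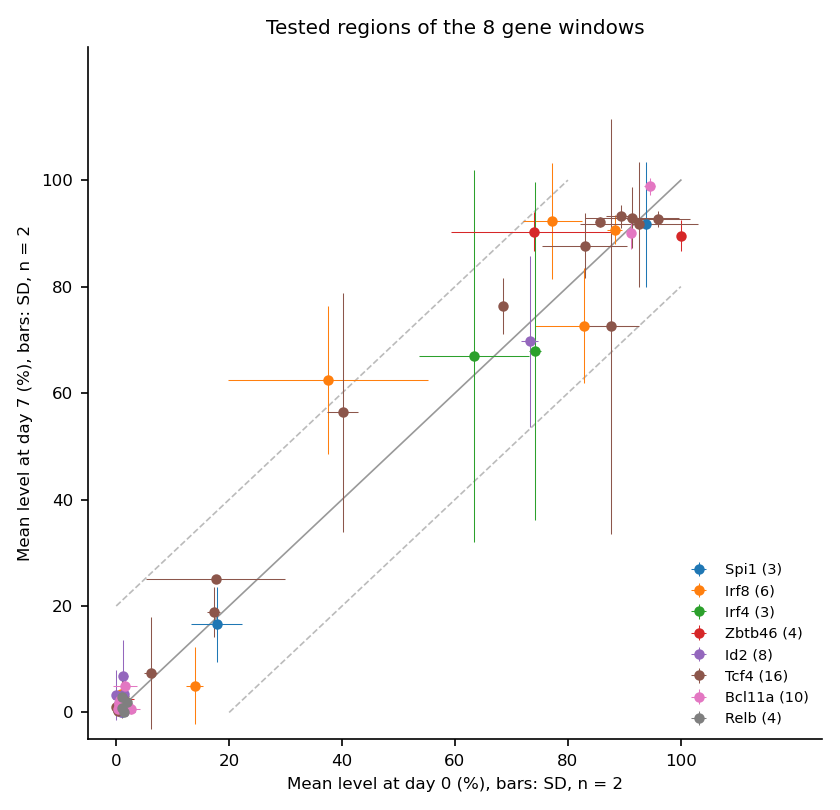
Mean level of each tested region in marrow (horizontal axis, percent) and on day 7 (vertical axis, percent), coloured by gene with the number of tested regions in brackets. Bars are the SD of 2 samples, the solid line marks equal levels and the dashed lines a difference of 20 points; a single region, in the Irf8 window, lies beyond them at 37.5% and 62.4%.

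The comparison between day 7 and day 0 asks whether methylation at these genes differs between the dendritic cell cultures and uncultured marrow. A region was called where edgeR gave an adjusted p under 0.05 and the group means lay 20 points or more apart. None of the 54 regions was called. Over the whole table, 0.497% of 56105 regions were called in this comparison, and 0.0417% with autosomes fitted alone. Day 7 against day 4 also gave 0 of 54, against 0.451% of all regions and 0.0181% of autosomal ones. Day 4 against day 0 gave 0 of 54, against 0.00178% and 0.00181%. With such background shares a count of 0 among 54 does not set these genes apart. At an unadjusted p below 0.05 in edgeR's likelihood ratio test there were 4 of 54 regions in each comparison, or 7.41%, beside 12.9% of all regions when day 7 was compared with day 0, 11.4% with day 4, and 6.6% when day 4 was compared with day 0. In each comparison 0 of the 54 were also called by edgeR's quasi-likelihood test, by limma and by Fisher's exact test with the reads of a group summed.

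Most regions fell in the same broad class of level in marrow and on day 7, which does not show that their levels were equal. By group mean, 49 of 54 regions were in the same class (below 20%, 20% to 80%, above 80%) in marrow and on day 7, and 47 of 54 on all 3 days. Of the 49, 32 were below 20% on both days. Of the 33 low regions, 27 stayed at or under 10% in every sample. For these counts, shares over all regions were not computed. The middle class is wide, and an Irf8 region with means of 37.5% in marrow and 62.4% on day 7 counts as unchanged. The 33 low regions were themselves chosen by their mean over the 6 samples, day 7 included. In 16 of 54 regions, or 29.6%, the 2 groups did not overlap and day 7 was higher than day 0, and in 3, or 5.56%, day 7 was lower. The shares over all tested regions were 29.8% and 7.03%, so the members differed little from the background in this order. Among the 33 low regions day 7 was higher without overlap in 9 and lower in 2, beside 31.7% and 4.42% of all low regions. Among the 21 at or above 20% it was higher in 7 and lower in 1, beside 28.4% and 8.91%.

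Day 4 was higher than day 0 without overlap in 8 of 54 regions and lower in 7, beside 20.6% and 10.3% of all regions. It was higher in 2 and lower in 6 of the 33 low regions, beside 12.6% and 11.4%, and higher in 6 and lower in 1 of the 21 others, beside 26.4% and 9.47%. Day 7 was higher than day 4 in 9 of 54 and lower in 3, beside 24.4% and 10.3%. This split into 6 higher and 0 lower among the low regions, beside 31.1% and 4.56%, and 3 higher and 3 lower among the others, beside 19.5% and 14.5%. The median difference between day 7 and day 0 was 1.25 points over the 54 regions and 1.53 points over all tested regions.

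**Figure D3:**
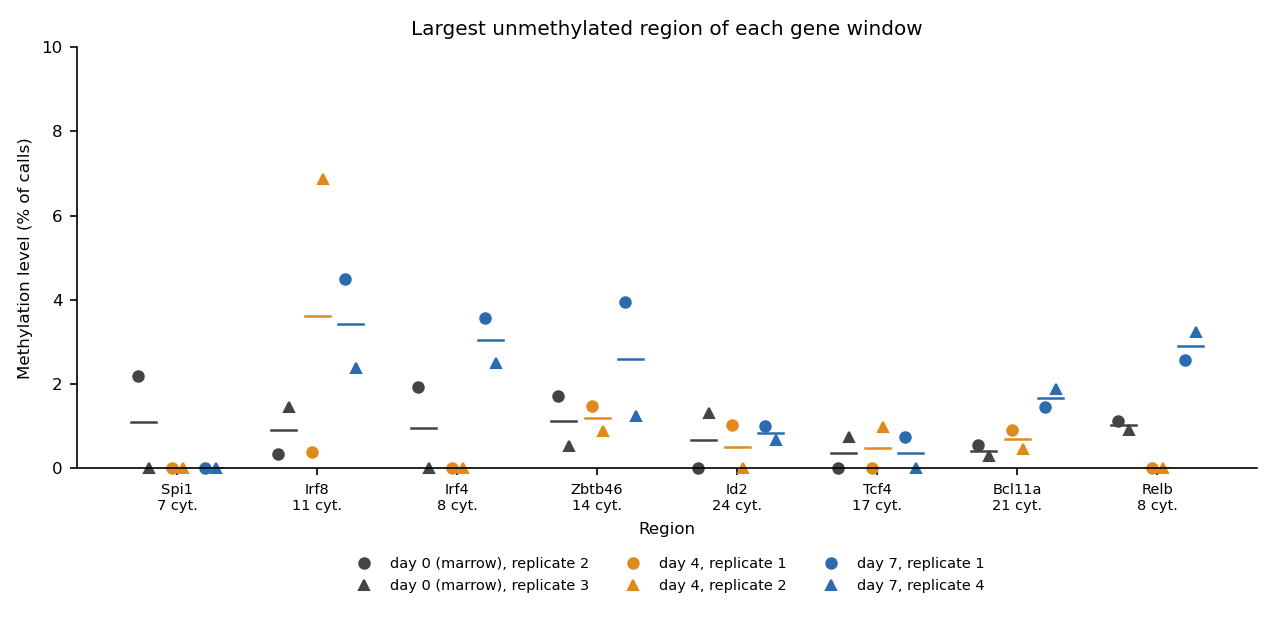
Methylation level in percent of calls (vertical axis, ending at 10%) in the region with the most cytosines below 20% in each gene window (horizontal axis), with 1 point per sample, colours for the days and symbols for the replicates; short lines are means of 2 samples. All points lie at 6.86% or lower, and those of Spi1 are at 0 except day 0 replicate 2.

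For Spi1, the PU.1 gene, the unmethylated region lay on chromosome 2 from 90919033 to 90919075 (7 cytosines). Its level was 2.20% and 0% in marrow, and 0% in both samples of day 4 and of day 7. The reads at its deepest cytosine numbered 3 to 13, and the 3 of day 7 replicate 4 set no useful limit. A second region from 90924747 to 90924795 (5 cytosines) stood at 21.0% and 14.5% in marrow, 5.13% and 22.2% on day 4, and 21.5% and 11.5% on day 7. The 3 days overlapped, and the widest gap, 17.1 points, was between the 2 samples of day 4. A further region, from 90953528 to 90953560 (3 cytosines), was not tested, with 6 calls in day 7 replicate 4. Its levels were 42.6% and 41.9% in marrow, 44.2% and 29.2% on day 4, and 37.8% and 50% on day 7. Near the far end of the window the region from 90955692 to 90955741 was methylated at 93.9% ± 2.79 in marrow, 96.9% ± 4.42 on day 4 and 91.7% ± 11.8 on day 7 (SD, n = 2 each). By these levels the PU.1 window showed low, partial and full methylation side by side in all groups. In day 7 replicate 4 the low and partial levels rest on 3 and 2 reads at the deepest cytosine.

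Irf8 had its largest low region on chromosome 8 from 123260541 to 123260705 (11 cytosines). Levels were 0.352% and 1.46% in marrow, 0.392% and 6.86% on day 4, and 4.49% and 2.38% on day 7. Day 7 lay above day 0 without overlap, within 5 points of 0 (difference 2.53 points, adjusted p = 0.320, edgeR). About 5 kb on, the region from 123265644 to 123265750 (3 cytosines) stood at 50% and 25.0% in marrow, 54.2% and 57.1% on day 4, and 72.2% and 52.6% on day 7. It was the only member region with a difference of at least 20 points in any comparison, and was chosen after its values were seen. Day 7 lay 24.9 points above marrow without overlap (adjusted p = 0.410, unadjusted p = 0.0600, edgeR). The day 0 samples alone lay 25.0 points apart on 46 and 20 calls, so the difference was no wider than that gap.

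Of the remaining Irf8 regions, that from 123267538 to 123267678 (4 cytosines) was low, at 12.8% and 15.0% in marrow, 4.76% and 5.71% on day 4, and 10.1% and 0% on day 7. Both later groups were below both marrow samples, day 4 with a difference of -8.66 points (adjusted p = 0.767, edgeR) and day 7 with -8.83 points (adjusted p = 0.640). The 0% of day 7 replicate 4 came from 17 calls on 5 reads at the deepest cytosine, which allow a level of up to 60%. Day 7 replicate 1 stood at 10.1%, beside 12.8% in day 0 replicate 2. The region named by rule for its difference between day 7 and day 4, from 123255860 to 123255903, went from 86.9% ± 3.53 on day 4 to 72.7% ± 10.9 on day 7 (SD, n = 2 each; adjusted p = 0.603, edgeR), with 82.9% ± 8.77 in marrow. Day 7 replicate 4 was lowest there at 65%, on 20 calls. The difference was -6.51 points without that sample and -21.9 points without day 7 replicate 1. In the Irf8 window 48 of 84 cytosines stood alone, outside any region, and the mean over those read in each sample was 48.2% ± 3.47 in marrow, 51.8% ± 0.827 on day 4 and 53.03% ± 5.89 on day 7 (SD, n = 2 each).

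Irf4 had 1 low region, the promoter stretch printed above, on chromosome 13 from 30840951 to 30841064. It stood at 1.92% and 0% in marrow, 0% in both day 4 samples, and 3.57% and 2.50% on day 7. Day 7 lay above day 4 (difference 3.04 points, adjusted p = 0.246, edgeR), a difference that rests on the 3 methylated calls named above, 2 of them in 1 sample. The regions on either side were methylated. That before it, from 30838764 to 30838863, stood at 73.5% and 75.0% in marrow, 76.7% and 67.7% on day 4, and 90.3% and 45.5% on day 7. That after it, from 30853155 to 30853179, stood at 56.4% and 70.2%, 78.6% and 62.5%, and 91.7% and 42.3%. At both, chosen after their values were seen, the 2 day 7 samples lay on opposite sides of all 4 other samples, on 12 to 31 calls each.

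Zbtb46, the conventional dendritic cell marker, had a low stretch of 2 regions on chromosome 2. The larger, from 181193208 to 181193316 (14 cytosines), stood at 1.73% and 0.541% in marrow, 1.49% and 0.893% on day 4, and 3.96% and 1.25% on day 7. The other, from 181194746 to 181194886 (12 cytosines), stood between 0% and 3.74% in all samples. The samples of the days overlapped at both. The strongest single test among the members was at a fully methylated region of this window, from 181158955 to 181158979 (4 cytosines), at 100% in both day 0 samples, 90.0% and 100% on day 4, and 87.5% and 91.7% on day 7. Day 7 lay below day 0 without overlap (difference -10.4 points, adjusted p = 0.204, unadjusted p = 0.00744, edgeR), on 12 to 32 calls and 3 to 8 reads per cytosine. The region from 181168911 to 181169048 went the other way, from 84.2% and 63.6% in marrow to 93.1% and 85.7% on day 4 and 87.8% and 92.9% on day 7 (16.4 points higher on day 7 than in marrow, adjusted p = 0.464, edgeR). Both of these were chosen after their values were seen.

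Id2 and Tcf4 encode an E protein inhibitor and an E protein, which act against each other in the choice between conventional and plasmacytoid fates. In the Id2 window all 8 regions that lay below 20% were found between 25777491 and 25786000 on chromosome 12. The largest, from 25783659 to 25783860 (24 cytosines), stood at 0% and 1.33% in marrow, 1.04% and 0% on day 4, and 0.997% and 0.676% on day 7, and the groups overlapped. The region nearest the low end of this stretch, from 25777491 to 25777666 (6 cytosines), stood at 0.741% and 1.79% in marrow, 6.52% and 4.82% on day 4, and 1.92% and 11.6% on day 7. Day 4 was higher than marrow without overlap (difference 4.41 points, adjusted p = 0.710, edgeR), and so was day 7 (5.51 points, adjusted p = 0.330). The order of day 7 against marrow rests on single calls. Day 7 replicate 1 had 1 methylated call of 52, and day 0 replicate 3 had 1 of 56. Day 7 replicate 4 had 5 of 43, on 9 reads at its deepest cytosine. Within the low stretch a single cytosine at 25783220 had a mean of 26.1% over the 6 samples, 7 bp from a cytosine where the run of 54 began. The methylated region of the window, from 25766126 to 25766269 (7 cytosines), was higher on day 4 (80.6% and 77.7%) than in marrow (72.2% and 74.3%) by 5.92 points (adjusted p = 0.908, edgeR), with 81.1% and 58.3% on day 7.

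Tcf4 had the widest window, 365 kb on chromosome 18, with 21 regions, of which 16 were tested. Its largest low region, from 69505849 to 69505917 (17 cytosines), stood at 0% and 0.735% in marrow, 0% and 0.980% on day 4, and 0.735% and 0% on day 7. The counts of 0 allow up to 37.5% in day 0 replicate 2, on 8 reads at the deepest cytosine, and 30% in day 4 replicate 1, on 10. The 2 reads of day 7 replicate 4 set no limit. Of the tested regions 7 were low, 2 intermediate and 7 high. The region named by rule for its differences, from 69577041 to 69577179 (5 cytosines), stood at 68.5% in both day 0 samples, 82.9% and 88.2% on day 4, and 72.6% and 80% on day 7. The 3 groups did not overlap, with day 4 highest, 17.03 points above day 0 (adjusted p = 0.725, unadjusted p = 0.0343, edgeR). Day 7 was 7.78 points above day 0 (adjusted p = 0.797).

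Further Tcf4 regions showed partial methylation or wide spread on day 7, and were chosen after their values were seen. The region from 69556172 to 69556274 (6 cytosines) stood at 38.2% and 42.03% in marrow, 37.9% and 43.01% on day 4, and 72.2% and 40.5% on day 7. Only day 7 replicate 1 stood apart from the rest. At the region from 69604523 to 69604547 (4 cytosines) levels were 91.1% and 84.1% in marrow, 93.5% and 85.3% on day 4, and 100% and 45.0% on day 7. Day 7 replicates 1 and 4 thus lay above and below all other samples. Day 7 was 16.9 points lower than day 4 there (adjusted p = 0.666, edgeR). Without day 7 replicate 1, which leaves replicate 4 with its 20 calls on 5 reads alone in its group, the region was 44.4 points lower and was called (adjusted p = 0.0478, edgeR). In that fit the lone sample is assumed to vary like the other groups, and 0.624% of all regions were called.

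**Figure D4:**
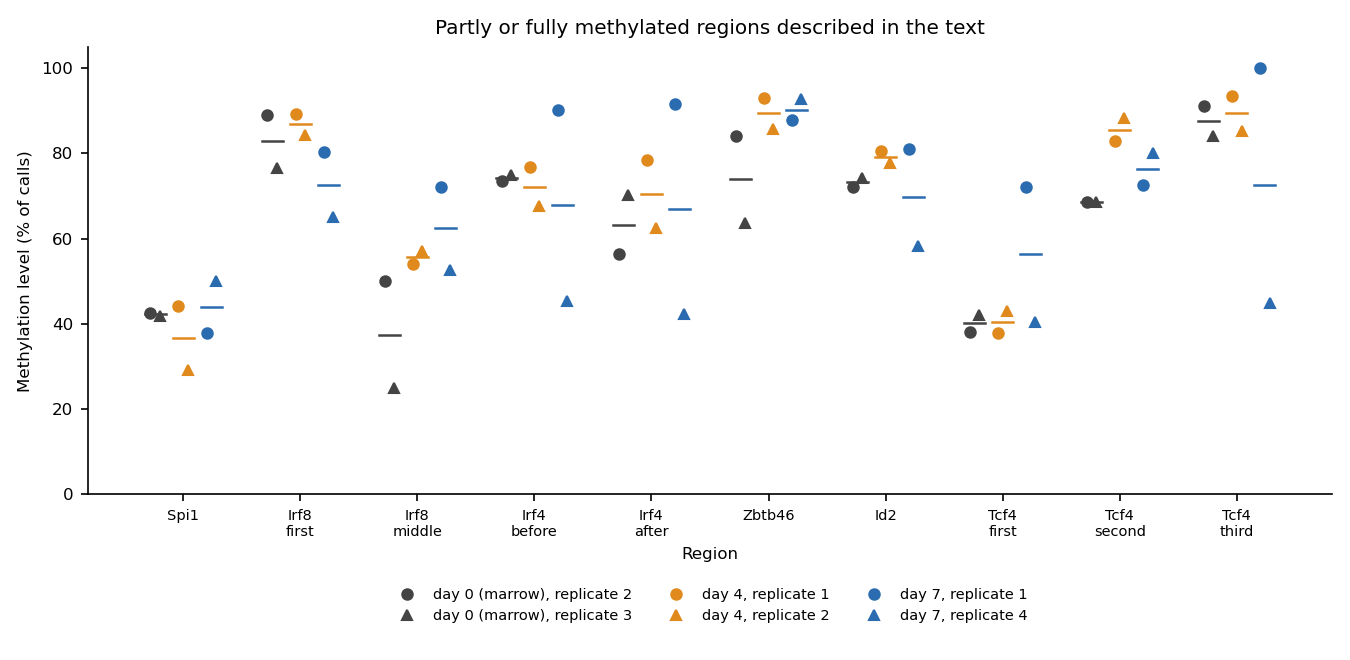
Methylation level in percent of calls (vertical axis) of 10 partly or fully methylated regions described in the text (horizontal axis, in window order within a gene), with 1 point per sample, colours for the days and symbols for the replicates; short lines are means of 2 samples. At Irf4 the 2 day 7 samples lie on opposite sides of the others (90.3% and 45.5%, 91.7% and 42.3%), and at Tcf4 first only day 7 replicate 1, at 72.2%, stands apart.

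Bcl11a had the longest unmethylated stretch, with 9 regions of which 8 were tested. All samples stayed at or under 6.67% in each of the 8. The largest, on chromosome 11 from 23979708 to 23979899 (21 cytosines), stood at 0.548% and 0.287% in marrow, 0.913% and 0.463% on day 4, and 1.45% and 1.89% on day 7. The 2 day 7 samples were above the other 4, with a difference from day 0 of 1.25 points (adjusted p = 0.495, edgeR). The region from 23981537 to 23981751 (20 cytosines) showed the same order, with a difference of 1.67 points (adjusted p = 0.308). Day 7 replicate 4 had 1 methylated call in each of these regions, of 53 and 64 calls. Its place in both orders thus rests on single calls. At the other end of the window the region from 24064599 to 24064763 (11 cytosines) was methylated at 94.5% ± 0.995 in marrow, 97.7% ± 1.68 on day 4 and 98.9% ± 1.63 on day 7 (SD, n = 2 each). Day 7 replicate 4 stood at 100% in this region, on 22 calls that came from 2 reads at its deepest cytosine. Day 7 lay 4.37 points above day 0 there (adjusted p = 0.485, edgeR) and day 4 lay 3.19 points above it (adjusted p = 0.832).

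Relb had 4 regions, all low. The largest by cytosines and calls, on chromosome 7 from 20214025 to 20214266 (8 cytosines), stood at 1.12% and 0.917% in marrow, 0% in both day 4 samples, and 2.56% and 3.23% on day 7. Day 4 was lowest and day 7 highest without overlap, with 2.89 points between day 7 and day 4 (adjusted p = 0.380, edgeR). This order rests on few methylated calls, 1 and 1 in marrow, 0 and 0 on day 4, and 2 and 1 on day 7. The day 4 counts of 0 came from 14 and 10 reads at the deepest cytosine, which do not exclude the levels of the other days. The other 3 regions stayed between 0% and 2.78% in all samples. The 8 cytosines outside regions were methylated, at 84.4% ± 0.461 in marrow, 89.3% ± 6.27 on day 4 and 92.0% ± 0.168 on day 7 (SD, n = 2 each). These means weight each cytosine equally, and day 7 replicate 4 had only 1 to 5 reads at each of the 8. The small SDs therefore do not show that the levels are precise. With reads summed over the whole Relb window, the difference between day 7 and marrow was -2.83 points. The part of depth in this order was not tested.

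Low regions stood highest on day 7 by their mean, among the members and over all autosomes. The mean level of the 33 low regions was 3.07% ± 0.477 in marrow, 2.39% ± 0.210 on day 4 and 3.86% ± 0.677 on day 7 (SD, n = 2 each), with the sample values 3.40%, 2.73%, 2.24%, 2.54%, 4.33% and 3.38% in the order of groups and replicates. The second day 7 sample lay just below the first day 0 sample, so the groups overlapped. The 23803 autosomal regions of this class stood at 2.24% ± 0.104, 2.28% ± 0.102 and 3.53% ± 0.106. The mitochondrial sequence, on 31 cytosines, stood at 0.519% ± 0.0406, 0.919% ± 0.361 and 2.02% ± 0.362. The mitochondrial level was thus also highest on day 7, and the part of whatever moved it in the levels of low regions was not tested. The 15 high regions stood at 88.5% ± 1.72, 89.8% ± 0.0291 and 89.3% ± 0.237.

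At methylated regions the 2 samples of day 7 were further apart than those of the other days in 10 of 21 regions, or 47.6%, beside 42.7% of autosomal regions. Over these 21 tested regions at or above 20%, the median gap between the samples of a group was 3.94 points in marrow, 5.95 on day 4 and 8.67 on day 7, beside 6.82, 6.44 and 8.68 points over 32068 autosomal regions. A gap over 20 points occurred in 2, 2 and 5 of the 21 regions, or 9.52%, 9.52% and 23.8%, beside 7.90%, 7.23% and 14.8% of the autosomal ones. At day 7 replicate 1 was higher in 10 of them and replicate 4 in 11. Day 7 replicate 4 was the shallowest library, with 2626 calls at the 607 cytosines, where the others had 5612 to 9526. Its median member cytosine had 4 reads, and those of the others 8 to 14. The part of depth in these gaps was not tested.

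With at least 10 reads in each sample, single cytosines could be tested in the Irf8, Tcf4 and Zbtb46 windows alone. Most of those tested lay in low regions, so they say little about methylated sites. The Spi1, Irf4, Id2, Bcl11a and Relb windows held no cytosine of that depth. Of the 22 with at least 10 reads in each sample, 17 had both methylated and unmethylated reads and were tested, and edgeR's likelihood ratio and quasi-likelihood tests called 0 in each comparison, beside 0.104% of 10559 cytosines when day 7 was compared with day 0, 0.123% with day 4, and 0.0% when day 4 was compared with day 0. At an unadjusted p below 0.05 there were 0, 0 and 1, beside 7.58%, 6.23% and 3.71% of all cytosines tested. That cytosine, named after its values were seen, lay in the second Zbtb46 low region at 181194800, with 0% and 4.76% in marrow, 23.1% and 9.52% on day 4, and 0% and 9.09% on day 7 (13.9 points higher on day 4 than in marrow, adjusted p = 0.773, edgeR). Its neighbours within 12 bp, read by nearly the same reads, stood at or under 11.5% in every sample.

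Averaged over the cytosines of a window with equal weight, levels differed by at most 3.05 points between day 0 and day 7, in Irf8. With reads summed over the window, which weights deep cytosines most, the difference was 0.964 points in Irf8, 5.11 in Tcf4, 4.4 in Zbtb46 and 3.96 in Irf4, beside 4.61 over all autosomal cytosines. The values that follow are means with equal weight. The Tcf4 window mean, over 165 cytosines, was 54.9% ± 0.0802 in marrow, 55.5% ± 0.785 on day 4 and 57.1% ± 2.09 on day 7 (SD, n = 2 each). The Irf8 mean, over 83 cytosines, was 44.03% ± 2.77, 46.8% ± 0.259 and 47.1% ± 1.83, and that of Zbtb46, over 47, was 34.6% ± 3.62, 38.1% ± 0.00948 and 37.6% ± 1.19. Id2 had the lowest mean, at 8.73% ± 0.175, 9.61% ± 0.451 and 10.3% ± 0.472. Bcl11a stood at 21.05% ± 0.945, 22.2% ± 0.558 and 22.5% ± 0.272, and Relb at 22.1% ± 0.335, 22.6% ± 1.25 and 24.2% ± 0.284. Spi1 stood at 36.8% ± 2.65, 35.5% ± 0.716 and 36.4% ± 1.10, and Irf4 at 42.3% ± 1.34, 42.1% ± 4.59 and 42.6% ± 10.2. In Id2, Tcf4, Bcl11a and Relb, and over all autosomal cytosines, day 7 was above marrow without overlap. With reads summed the 2 groups overlapped in Id2, Bcl11a and Relb. The difference between day 7 and day 0 was positive in 7 of 8 windows and -0.372 points in Spi1, beside 2.85 points over all autosomal cytosines. Window means are given as a description, with no test.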

How the data were processed

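The authors deposited 1 table with, for each cytosine and sample, the methylated fraction and the counts of unmethylated and methylated reads. Bismark and Bowtie2 were used on mm9, per the submitters' processing notes. The sources used here do not give trimming, duplicate handling or versions. DNA was cut with MspI or TaqI, per the labels' protocols, and no molecular identifiers are named, so limits from a count of 0 (3 counts of the total) cover counting error only. Calls of 1 read at neighbouring cytosines are not independent.

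Member windows were fixed by mm9 coordinates. Members, lists and regions were chosen with earlier results of these data known. Regions of all chromosomes with at least 10 calls per sample and both kinds of call (56105) were fitted together in edgeR 4.0.16 (R 4.3.3): negative binomial counts of both kinds of call, a term per sample and a methylation term per group, all 6 samples, dispersion without trend, likelihood ratio test, Benjamini-Hochberg adjustment over all regions. The spread between samples at a region was estimated with information shared over all regions and groups. A wide gap between the samples of a group therefore enters the p-value of its region only in part. Cytosines with at least 10 reads per sample were fitted likewise. The procedure was tested on simulated data, in which many differences planted on day 7 were left uncalled. Regions left uncalled are therefore not shown to have equal levels. Named regions were, per gene, the one with the most cytosines below 20%, and, at or above 20% with at least 20 calls per sample and no overlap of groups, the one with the largest difference between day 7 and day 0 and the largest between another pair of groups. Other regions described were chosen after their values were seen. Alternatives included limma 3.58.1 (pseudocount 0.5). Gene models on mm9 were not used here, so no region is assigned to an exon or intron, and the planned list of other pathway genes was not run.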

Additional observations from a re-analysis of the deposited data

How the results depend on the processing

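The count of called member regions was 0 in each comparison under minimum differences of 10 points or none, the quasi-likelihood test, limma, Fisher's exact test on pooled reads, at least 20 calls, gaps of 50 or 200 bp, autosomes alone and only the 2 groups compared. With each sample left out it ranged from 0 to 1 for day 7 against day 4, where the 1 call came without day 7 replicate 1 (Tcf4), and stayed 0 in the other comparisons. Called member cytosines stayed at 0 under every alternative run. All 48 alternative values of the regions named for a difference stayed uncalled. Their kept direction was fixed by the naming rule, since groups without overlap cannot change order when 1 sample is left out. The other alternatives used the same group means. The difference of window means between day 7 and day 0 moved by more than the SD between replicates in 5 of 19 alternatives. By summed reads it was 5.11 points in Tcf4, 0.0955 in Bcl11a and -2.83 in Relb, the last with its sign turned, and at 5 or more reads per cytosine 2.75 in Bcl11a and 0.312 in Relb. Within that SD, but by over 1.5 times, summed reads moved Irf4 from 0.276 to 3.96 points, Irf8 from 3.05 to 0.964 and Spi1 from -0.372 to 0.928, and 5 or more reads moved Spi1 to -2.48 and Irf4 to 0.676. At 10 or more reads Irf8 gave 1.65 and Zbtb46 1.11, against 2.98. Over all autosomal cytosines summed reads gave 4.61 points. The cause was not tested. No paired analysis was possible because the groups compared share at most 1 replicate number. A difference that was not called is not shown to be absent, and the part of depth in the low counts of calls was not tested.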
